A study of Mus musculus with 6 samples.

Results

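The caudal and neuromesodermal progenitor regulators described here are 6 transcription factor genes, Nkx1-2, Cdx1, Cdx2, Cdx4, Tbx6 and Msgn1. They make up 6 of the 52636 genes in the deposited count table, and 4 of the 6 (Nkx1-2, Cdx1, Cdx2 and Tbx6) passed the filter on low counts. The genes were chosen by name, with the difference between genotypes in these same samples already known. Their values in WT and Tnfaip2-/- EBs are therefore a description without a test.

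RNA was sequenced from embryoid bodies (EBs), aggregates in which mouse embryonic stem cells (ESCs) start to differentiate. WT EBs came from the parental ESC line E14, and Tnfaip2-/- EBs from a single clone of that line with a frameshift made by CRISPR/Cas9. EBs of both genotypes formed for 3 days in hanging drops in medium with leukemia inhibitory factor (LIF), and then differentiated for 3 days on gelatin in medium without it. Each genotype had 3 replicates, with 22489903 to 23804489 counts per sample in the WT EBs and 21765931 to 22480962 in the Tnfaip2-/- EBs. The study's methods call the replicates biological, without saying how their cultures were separated, and p-values measure the spread between these samples. That spread was small: for well-counted genes, squared differences within a genotype were 1.4 to 2.09 times those of counting error alone. Small differences between the genotypes can therefore pass the threshold. Genotype and clone cannot be told apart, because each genotype is 1 line.

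In the mouse embryo, the caudal epiblast beside the primitive streak holds neuromesodermal progenitors, cells that give rise to both spinal cord and paraxial mesoderm while the body axis lengthens. Wnt and FGF signals maintain these cells and switch on the Cdx homeobox genes, whose proteins in turn activate Hox genes of the trunk. Nkx1-2 marks the caudal epiblast and the preneural tube, and the T-box factor Tbx6 and the bHLH factor Msgn1 direct cells into presomitic mesoderm.

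Tnfaip2, the edited gene, was checked first. It had counts of 7, 4 and 7 in WT and of 0, 2 and 2 in Tnfaip2-/- samples. The groups did not overlap, but all Tnfaip2-/- samples were at or under 3 counts, the number taken as the floor of detection. The summed counts, adjusted for depth, had a ratio of 4.39 (WT over Tnfaip2-/-, exact 95% interval 1.44 to 17.8). Intervals of this kind and floors cover counting error only, and a frameshift itself need not lower the RNA of a gene.

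Nkx1-2, the caudal epiblast marker, was the most abundant of the regulators per length in WT EBs. It had counts of 199, 208 and 198 in WT and of 4, 3 and 2 in Tnfaip2-/- samples. Every WT sample was far above every Tnfaip2-/- sample, and the 3 WT samples lay close together. In CPM, counts scaled to the size of each library, the level was 8.82 ± 0.433 in WT EBs and 0.134 ± 0.0429 in Tnfaip2-/- EBs (SD, n = 3). The log2 fold change (Tnfaip2-/- minus WT) was -5.98 with a standard error of 0.222. The ratio of summed counts was 65.5 (exact 95% interval 34.3 to 144.0). In these bulk samples, fewer cells of a type and less RNA per cell cannot be told apart. Nkx1-2 (ENSMUSG00000048528) lies on the reverse strand at chr7:132594878-132599637 in GRCm38, with 2 exon blocks. Of its exon bases, 16.6% are shared with Gm16764 on the opposite strand, and reads of the 2 strands were not kept apart by the library kit. Gm16764 itself had counts of 0, 0 and 2 in WT samples and 0 counts in each Tnfaip2-/- sample. The annotated span of Fgfr2, on the same strand as Nkx1-2, also overlaps that of Nkx1-2, with 0 shared exon bases.

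The 3 Cdx genes encode caudal-type homeobox factors that specify posterior identity, and Cdx2 is also a factor of trophectoderm and intestine. Cdx1 had counts of 35, 43 and 44 in WT and of 0, 2 and 3 in Tnfaip2-/- samples. All Tnfaip2-/- samples were at or under the floor, well below the lowest WT sample. The level was 1.78 ± 0.205 CPM in WT EBs and 0.0754 ± 0.0689 CPM in Tnfaip2-/- EBs (SD, n = 3), and the ratio of summed counts was 23.8 (exact 95% interval 9.92 to 74.5). Its fitted log2 fold change of -4.47 became -5.16 without Tnfaip2-/- replicate 3, -3.91 without Tnfaip2-/- replicate 1, and -3.51 with a prior count of 2 in the fit. Cdx2 had counts of 42, 37 and 28 in WT and of 1, 2 and 0 in Tnfaip2-/- samples. Again no Tnfaip2-/- sample came near a WT sample, although the WT samples differed more among themselves than those of Nkx1-2. The ratio of summed counts of Cdx2 was 34.8 (exact 95% interval 11.6 to 171.0). Its fitted log2 fold change was -4.96 (standard error 0.467). It was -5.82 without Tnfaip2-/- replicate 2, -4.44 without Tnfaip2-/- replicate 3, and -3.63 with a prior count of 2. Cdx4, the family member on the X chromosome, had counts of 2, 2 and 1 in WT samples and 1 count in each Tnfaip2-/- sample. Both groups were under the floor and overlapped, so that no fold change is given and a difference was not detectable at this depth. In GRCm38, Cdx2 (ENSMUSG00000029646) lies on the reverse strand at chr5:147300805-147307270 and Cdx4 (ENSMUSG00000031326) on the forward strand at chrX:103321398-103330592, each with 3 exon blocks.

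**Figure D1:**
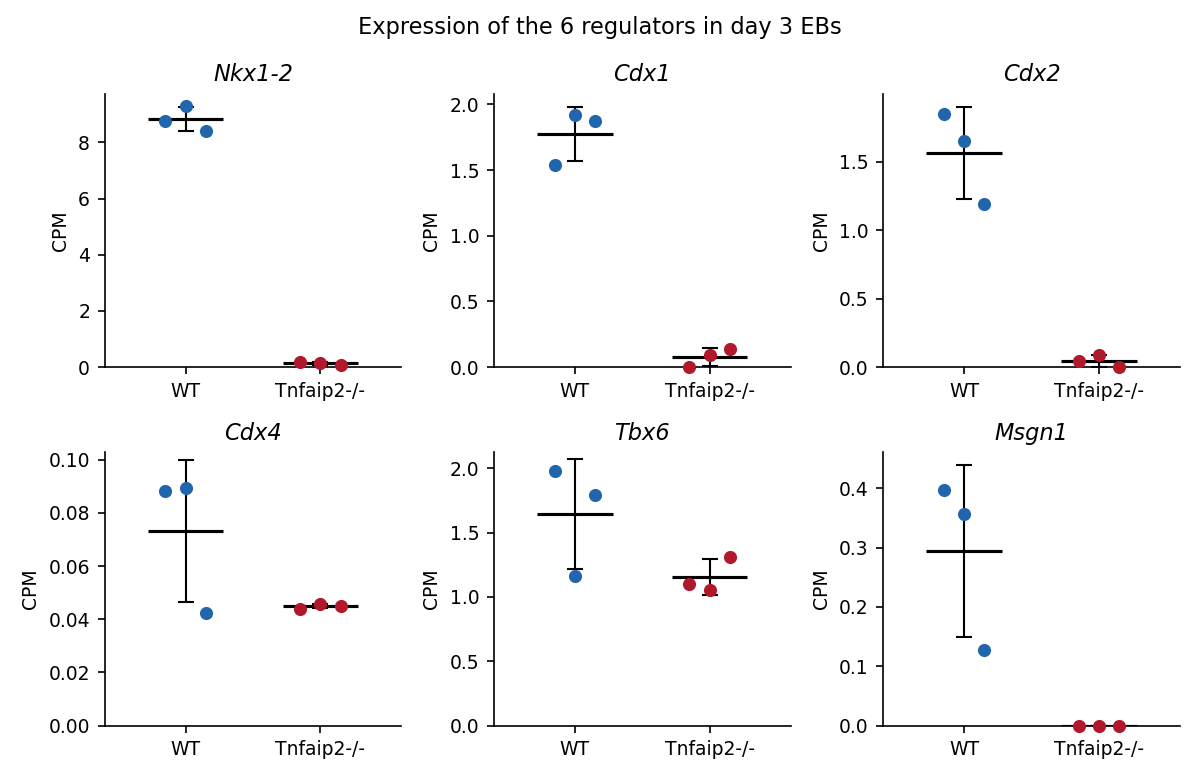
Level of each regulator in CPM (vertical axis, starting at 0 and scaled per gene) in the 3 WT samples (blue) and 3 Tnfaip2-/- samples (red), with the mean (horizontal line) and SD (error bar). The groups are apart for Nkx1-2, Cdx1, Cdx2 and Msgn1, and overlap for Cdx4 and Tbx6.

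The regulators of paraxial mesoderm differed from each other in pattern. Tbx6, needed to form presomitic mesoderm in place of neural tissue, had counts of 45, 26 and 42 in WT and of 25, 23 and 29 in Tnfaip2-/- samples. The groups overlapped, because WT replicate 2 lay below Tnfaip2-/- replicate 3. The level was 1.64 ± 0.43 CPM in WT EBs and 1.15 ± 0.136 CPM in Tnfaip2-/- EBs (SD, n = 3). The log2 fold change was -0.51, with 0.22 as its standard error. Without that WT sample, the value was -0.71, and without WT replicate 1 it was -0.37. Msgn1, a bHLH factor of presomitic mesoderm, had counts of 9, 8 and 3 in WT samples and 0 counts in each Tnfaip2-/- sample. The exact 95% interval of the ratio of summed counts (WT over Tnfaip2-/-), which counts the error of both groups, has a lower limit of 4.81. Set against a floor of 3 counts over the 3 Tnfaip2-/- samples together, and not in each of them, the ratio was 6.5, a value that leaves out the error of the WT counts. On the log2 scale this value was -2.70, and it was -2.10, -2.13 and -2.13 without Tnfaip2-/- replicate 1, 2 and 3, since the same floor then rests on fewer samples. Msgn1 did not pass the filter on low counts. In GRCm38, Tbx6 (ENSMUSG00000030699) lies on the forward strand at chr7:126781483-126785560 with 8 exon blocks, and Msgn1 (ENSMUSG00000047002) on the reverse strand at chr12:11208360-11208972 with 1. Neither shares exon bases with another annotated gene.

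**Figure D2:**
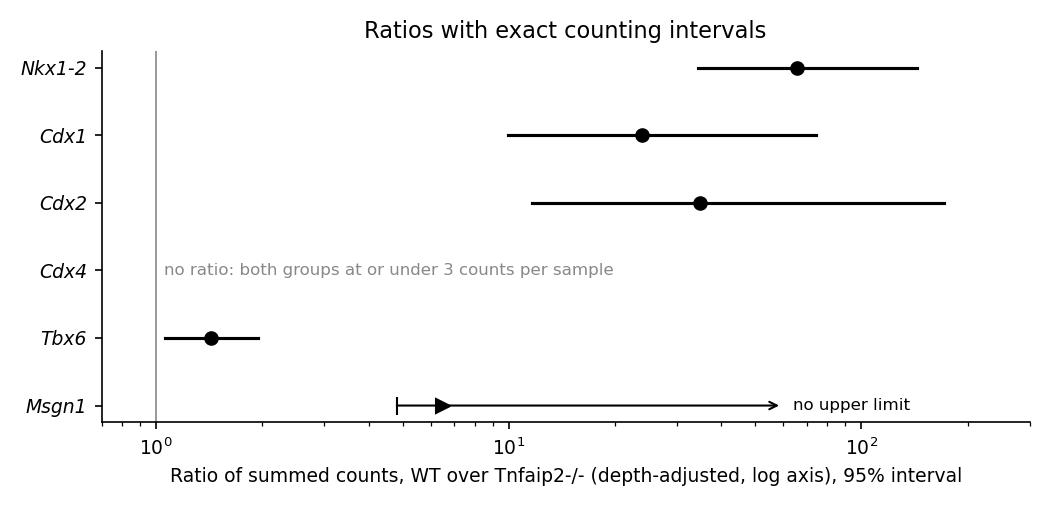
Ratio of summed counts (WT over Tnfaip2-/-, adjusted for depth, log axis) with exact 95% intervals for counting error (lines). For Msgn1, with 0 counts in Tnfaip2-/- EBs, the line starts at its exact lower limit of 4.81 and has no upper limit, and the triangle is the value of 6.5 against the floor of 3 counts over the group. No ratio is given for Cdx4, and the ratio of Tbx6 is 1.43 (1.06 to 1.94).

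The groups of 4 of the 6 regulators did not overlap, with Tnfaip2-/- below WT. Among the 4 that were tested this held for 3, and among all 17849 tested genes for 34.5%. Since the regulators were selected on this contrast, nothing is read from that count. In the order of all tested genes from the lowest log2 fold change, Nkx1-2 was at position 8, Cdx2 at 13, Cdx1 at 20 and Tbx6 at 2412. The median log2 fold change of all tested genes was 0.00297, and 62 of them were at least 8-fold lower.

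Levels of different genes were compared per kilobase of exon. In WT EBs, Nkx1-2 had 2.7 ± 0.133 CPM per kilobase, ahead of Cdx1 with 1.02 ± 0.117 and Tbx6 with 0.911 ± 0.238 (SD, n = 3). Cdx2 followed with 0.692 ± 0.15 and Msgn1 with 0.479 ± 0.237. From Cdx1 to Msgn1, each gene differed from the next by less than their combined spread, whereas Nkx1-2 stood above and Cdx4, with 0.0373 ± 0.0136, below. In Tnfaip2-/- EBs, Tbx6 was highest with 0.638 ± 0.0756 CPM per kilobase, and the others, with 0 to 4 counts per sample, could not be ranked. Even Nkx1-2 was expressed in WT EBs below the median of tested genes (4.6 CPM per kilobase), with 39.9% of tested genes under it.

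Promoters are shown because Nkx1-2, Cdx2 and Msgn1 were lower in every Tnfaip2-/- sample, whereas Cdx4, of the same family as Cdx2, was near 0 counts in both groups. RefSeq (GRCm38.p6) promoter windows, 250 bases before to 50 bases after the RefSeq start of each gene, were matched for 5 of the 6 regulators and not for Cdx1. The 250 bases before that start are printed 5′ to 3′ on the strand of the gene, for Nkx1-2 at chr7:132599638-132599887 (reverse strand), Cdx2 at chr5:147307250-147307499 (reverse strand), Cdx4 at chrX:103321148-103321397 (forward strand) and Msgn1 at chr12:11208949-11209198 (reverse strand). Capitals mark matches, on either strand, to the octamer of POU factors (ATGCAAAT), the TCF/LEF core (CTTTGA), the T-box core (AGGTGT), the CDX core (TTTATG) and the TATA box (TATAAA).
Nkx1-2: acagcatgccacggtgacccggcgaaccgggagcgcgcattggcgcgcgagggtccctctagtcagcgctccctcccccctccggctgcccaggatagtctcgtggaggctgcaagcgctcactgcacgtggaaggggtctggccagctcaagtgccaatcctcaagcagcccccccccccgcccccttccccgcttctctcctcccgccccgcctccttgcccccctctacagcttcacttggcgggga
Cdx2: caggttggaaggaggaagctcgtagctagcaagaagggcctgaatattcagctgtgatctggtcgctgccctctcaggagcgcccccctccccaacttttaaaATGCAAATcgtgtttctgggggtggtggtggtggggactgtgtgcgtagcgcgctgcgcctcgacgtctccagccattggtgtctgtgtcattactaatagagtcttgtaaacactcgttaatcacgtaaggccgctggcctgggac
Cdx4: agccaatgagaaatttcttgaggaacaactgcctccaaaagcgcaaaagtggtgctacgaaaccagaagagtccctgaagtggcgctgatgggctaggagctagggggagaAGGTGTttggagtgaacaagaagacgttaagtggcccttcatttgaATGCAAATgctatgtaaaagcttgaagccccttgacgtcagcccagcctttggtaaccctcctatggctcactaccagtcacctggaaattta
Msgn1: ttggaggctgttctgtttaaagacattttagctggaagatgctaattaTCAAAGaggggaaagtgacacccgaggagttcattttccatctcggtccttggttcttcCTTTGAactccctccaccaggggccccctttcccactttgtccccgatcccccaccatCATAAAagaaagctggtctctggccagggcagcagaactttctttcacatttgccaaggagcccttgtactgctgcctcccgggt
Positions count from the RefSeq start, which lies 21 bases inside the GENCODE gene given above for Cdx2 and 24 bases inside that for Msgn1, and at its first base for Nkx1-2, Cdx4 and Tbx6. Cdx2 and Cdx4 each held an octamer, which begins at position -147 and -93. Of all 32817 promoters of this length, 1.74% held this octamer, a motif picked after the sequences had been read. Cdx4 also held a T-box core at -139, as did 13.7% of promoters. Msgn1 held TCF/LEF cores at -202 and -143 (16% of promoters) and a CDX core at -85 (11.9% of promoters). Nkx1-2 held no match in its window, the most GC-rich of those matched (67.3% against a median of 52.7% over all promoters), and Tbx6 held a TATA box at -43 (13.6% of promoters). A match is a description of the letters, and binding was not tested.

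Genes of signals that act on the caudal epiblast were mostly lower in Tnfaip2-/- EBs. Of the 20 genes listed for caudal signals (Wnt, FGF and TGF-β family ligands, Rspo3 and enzymes of retinoic acid), all tested, 15 were lower, 3 higher and 2 not called. Their median log2 fold change was -0.846, beside 0.00297 over all tested genes, of which 33.7% were lower and 34.0% higher. These calls and those for the other lists are from edgeR's quasi-likelihood test with Benjamini-Hochberg adjustment over all tested genes, at a threshold of 0.05. Wnt8a, a Wnt ligand of the primitive streak, had counts of 266, 265 and 324 in WT and of 9, 6 and 6 in Tnfaip2-/- samples. Its level of 12.4 ± 1.16 CPM in WT EBs fell to 0.313 ± 0.0714 CPM (SD, n = 3), which is -5.29 on the log2 scale (Benjamini-Hochberg adjusted p = 3.26e-29, edgeR's quasi-likelihood test). Fgf8 (log2 fold change -4.69) and Rspo3, a secreted enhancer of Wnt signalling (-3.27), fell next most. The most abundant genes of the list, Fgf4 and Nodal, moved less, with log2 fold changes of -0.65 and -0.49. The 3 called higher, named after their values were seen, were Aldh1a2 (1.31), Bmp4 (1.22) and Fgf3 (0.52). Cyp26a1 (-0.02) and Fgf18 (0.14) were not called.

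Of 20 effectors and targets of Wnt signalling, 19 were tested, and 10 were lower, 6 higher and 3 not called. These counts stand beside 33.7% lower and 34.0% higher among all tested genes. The median log2 fold change of the list was -0.358. The Wnt targets Sp8 and Sp5, zinc finger factors of the caudal embryo, fell with log2 fold changes of -3.17 and -2.80, and Tnfrsf19 fell by 2.95 on the log2 scale. Ctnnb1, which encodes the effector β-catenin, rose from 714 ± 4.5 to 823 ± 5.02 CPM (SD, n = 3), and Tcf7l1, a repressor of Wnt targets, had a log2 fold change of 0.12. The others called higher, named after their values were seen, were Rnf43 (0.89), Notum (0.58), Lrp6 (0.27) and Lrp5 (0.18).

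Of 18 markers shared by neuromesodermal progenitors and caudal epiblast, 16 were tested, with 13 lower, 2 higher and 1 not called. Over all tested genes, 33.7% were lower and 34.0% higher. The median log2 fold change of these markers was -1.35. T, which encodes the streak and progenitor factor Brachyury, had a ratio of summed counts of 257.0 (WT over Tnfaip2-/-, exact 95% interval 135.0 to 562.0). Evx1 and Mixl1, homeobox genes of the streak, fell with log2 fold changes of -4.44 and -3.74. Sox2, which progenitors of this kind express together with T, rose from 280 ± 2.82 to 329 ± 6.78 CPM (SD, n = 3). Grhl3, the other marker called higher and named after its values were seen, rose from 12.2 ± 1.16 to 67.6 ± 1.9 CPM (log2 fold change 2.47). Lin28a, an RNA-binding protein gene of early embryonic cells, fell from 335 ± 2.33 to 161 ± 2.2 CPM.

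Genes of paraxial mesoderm and of neural fate, not all of them particular to descendants of these progenitors, were called in both directions. So were all tested genes (33.7% lower and 34.0% higher). Of 24 paraxial mesoderm and segmentation genes, 17 were tested, with 10 lower, 3 higher and 4 not called, and a median log2 fold change of -0.49. Mesp1, a bHLH gene of early mesoderm, had counts of 32, 26 and 16 in WT and of 0, 2 and 2 in Tnfaip2-/- samples, a ratio of summed counts of 18.0 (exact 95% interval 6.75 to 67.9). Pcdh8, a protocadherin of presomitic mesoderm, and the Notch ligand Dll1 fell with log2 fold changes of -2.86 and -1.69. The most abundant genes, Tcf15 and Hes1, had log2 fold changes of -0.10 and -1.13. Those called higher, named after their values were seen, were Aldh1a2 (1.31), Notch1 (0.82) and Nrarp (0.53). Of 20 neural fate genes, 13 were tested, with 7 lower, 4 higher and 2 not called, and a median of -0.428. Msx1 (-1.77), Sox1 (-1.61) and Sox3 (-1.58) fell most, while Otx2, a gene of forebrain and epiblast, was at 224 ± 2.25 CPM in WT EBs and 223 ± 0.675 CPM in Tnfaip2-/- EBs and was not called. Besides Sox2 (0.23), the neural genes called higher, named after their values were seen, were Tubb3 (0.37), Map2 (0.37) and Irx3 (0.34).

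Hox genes, some of which Cdx factors activate in the trunk, were measured for 39 genes, of which 8 were tested. Of these, 6 were lower, 0 higher and 2 not called, beside 33.7% lower and 34.0% higher among all tested genes. Their median log2 fold change was -1.79. By the number in the gene name (the paralogue group), 3 of 4 tested genes were lower in groups 1 to 2, and 3 of 3 in groups 3 to 5. In groups 6 to 9, 1 gene (Hoxb9) was tested and 0 were lower, and in groups 10 to 13, 0 were tested. The genes called lower were thus all from groups 1 to 5. With an unadjusted p from edgeR's quasi-likelihood test in place of the adjusted one, and with DESeq2, the number higher was also 0. Hoxb2 and Hoxb1 fell most among those named, with counts of Hoxb2 of 21, 20 and 20 in WT and of 1, 0 and 1 in Tnfaip2-/- samples (ratio of summed counts 29.7, exact 95% interval 7.88 to 251.0). Hoxb1 and Hoxa5 had log2 fold changes of -4.00 and -2.37.

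Few relatives of the regulators passed the filter on low counts. Of 16 other T-box genes, 6 were tested, with 3 lower (T, Tbx3 and Eomes), 2 higher and 1 not called (Mga). Among all tested genes, 33.7% were lower and 34.0% higher. The median log2 fold change of the 6 was -0.326, and Mga, the most abundant of them, had -0.03. Tbx3 fell from 32.9 ± 0.687 to 12 ± 0.431 CPM (SD, n = 3), Eomes from 28.3 ± 1.73 to 18.4 ± 1.54 CPM, and Tbx4 rose with a log2 fold change of 1.18. The number higher was 4 without Tnfaip2-/- replicate 1 and 1 without Tnfaip2-/- replicate 2, and was 5 without the filter and 1 with DESeq2. With a minimum count of 30, edgeR called 0 of the 4 genes then tested higher (0 at an unadjusted p). Of 6 homeobox and bHLH relatives 2 were tested: Mesp1, as given above, and Mesp2, which had 1.17 ± 0.094 CPM in WT EBs and 1.29 ± 0.181 CPM in Tnfaip2-/- EBs and was not called. Their median log2 fold change was -1.96, with 1 lower and 0 higher, also at an unadjusted p from edgeR and with DESeq2. Gsx2, below the filter, had counts of 10, 7 and 12 in WT and of 0, 1 and 1 in Tnfaip2-/- samples.

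**Figure D3:**
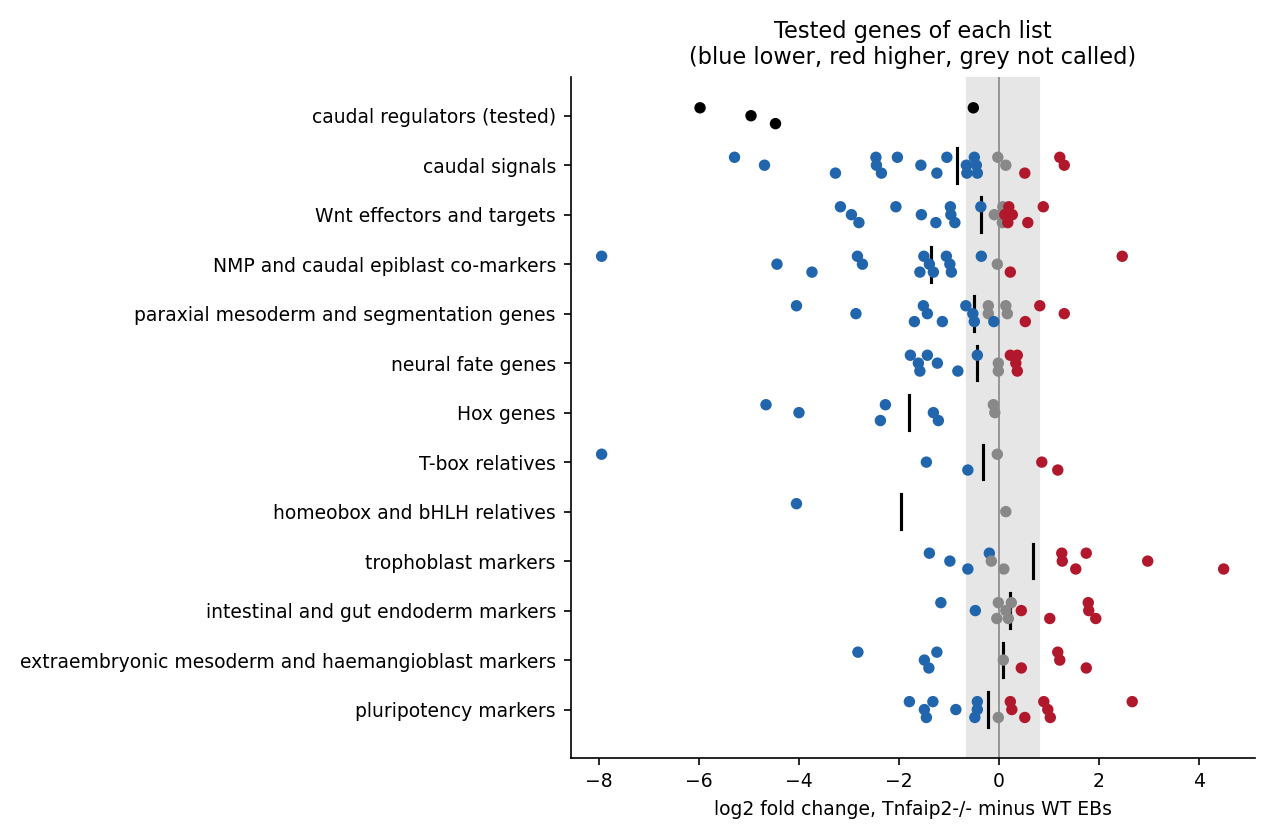
Log2 fold change (Tnfaip2-/- minus WT EBs, horizontal axis) of each tested gene of each list, with the list's median (black line). The grey band holds the middle of all tested genes, from the 10th to the 90th percentile (-0.629 to 0.803), and black points are the tested regulators.

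Cdx2 also acts in trophoblast and intestine, and markers of these and of other cell types that EBs may hold were read from the same samples. Their part in the values of the regulators was not tested. The counts of called markers stand beside 33.7% lower and 34.0% higher among all tested genes. Of 16 trophoblast markers, 12 were tested, with 4 lower, 6 higher and 2 not called, and a median log2 fold change of 0.68. Their summed level was 93.5, 93.4 and 92.3 CPM in the WT EBs and 233, 226 and 233 CPM in the Tnfaip2-/- EBs. Tfap2c alone rose from 21.6 ± 1.07 to 171 ± 1.65 CPM (SD, n = 3), which is 23.3% of the sum in WT EBs and 74.0% in Tnfaip2-/- EBs. Without Tfap2c the sum was 70.9, 72.9 and 70.4 CPM in the WT EBs and lower in the Tnfaip2-/- EBs, with 60.8, 56.9 and 62.2 CPM. Eomes, the most abundant marker in WT EBs with 30.4% of the sum, fell with a log2 fold change of -0.62, and Gcm1 and Hand1 rose from a low level. The other called genes, named after their values were seen, were Ascl2 (1.54), Gata2 (1.27) and Krt7 (1.26) on the higher side and Tfap2a (-1.39), Tead4 (-0.98) and Krt8 (-0.19) on the lower side. The placental genes Tpbpa and Prl3d1 were at 0 in every sample, and Elf5 never exceeded 3 counts. Of 14 markers of intestine and gut endoderm, 12 were tested, with 2 lower, 5 higher and 5 not called, and a median of 0.22. Their summed level, of which Epcam held 72.5% in WT and 62.1% in Tnfaip2-/- EBs, was 203, 202 and 201 CPM in the WT EBs and 170, 167 and 172 CPM in the Tnfaip2-/- EBs. Without Epcam the direction turned, with 54.8, 57.7 and 54.2 CPM in the WT EBs and 63.7, 62.6 and 66.8 CPM in the Tnfaip2-/- EBs. Foxa1, Muc2 and Lgals4 rose, with log2 fold changes of 1.94, 1.80 and 1.79, and Cdh17 never exceeded 3 counts. The 2 genes called lower were Epcam, with -0.47, and Foxa2, with -1.16. Foxa2, named after its values were seen, fell from 2.48 ± 0.237 to 1.11 ± 0.179 CPM (SD, n = 3).

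Of 14 markers of extraembryonic mesoderm and blood precursors, 9 were tested, with 4 lower, 4 higher and 1 not called, and a median log2 fold change of 0.0868. Their summed level was 37.2, 37.4 and 37.8 CPM in the WT EBs and 46.6, 50.1 and 54.8 CPM in the Tnfaip2-/- EBs, with Pecam1 holding 63.4% in WT and 64.5% in Tnfaip2-/- EBs. Kdr, a receptor of early blood and vessel cells, fell with -2.82 and Bmp4 rose with 1.22 on the log2 scale, and the embryonic globin gene Hbb-bh1 never exceeded 3 counts. All 16 pluripotency markers were tested, with 8 lower, 7 higher and 1 not called, and a median of -0.217. Among all tested genes 33.7% were lower and 34.0% higher, and nothing particular to this list or to the extraembryonic one is read from its counts. Their summed level was 2985, 2971 and 2975 CPM in the WT EBs and 2562, 2559 and 2575 CPM in the Tnfaip2-/- EBs. The most abundant was Pou5f1 in WT EBs, with 25.5% of the sum, and Zfp42 in Tnfaip2-/- EBs, with 16.7%. Pou5f1 fell from 759 ± 9.63 to 419 ± 5.97 CPM and Zfp42 rose from 229 ± 8.93 to 427 ± 1.57 CPM (SD, n = 3). Dnmt3b fell from 598 ± 2.09 to 173 ± 4.57 CPM, and Klf4 with a log2 fold change of -1.49, while Dppa3 rose with 2.67.

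Genes beside the regulators on the chromosome were tested in the same fit, leaving out genes that overlap a regulator, such as Fgfr2 at Nkx1-2. Of the 36 nearest tested genes, 3 on each side of each regulator, 12 were lower, 11 higher and 13 not called, with a median log2 fold change of 0.01, beside 33.7% lower and 34.0% higher among all tested genes. Of the 6 genes around Nkx1-2, 4 were lower, and Lhpp (-1.31) and Fam53b (-1.13) on its higher-coordinate side were the 2 of the 36 that fell by at least 2-fold. Oat and Chst15 on the other side had log2 fold changes of -0.77 and -0.91. On the higher-coordinate side of Cdx2, Flt1, 3 genes away, rose from 2.94 ± 0.107 to 13.3 ± 0.815 CPM (SD, n = 3). Ypel3 and Ppp4c, adjacent to Tbx6, had log2 fold changes of -0.18 and -0.13. No flanking gene fell as far as the tested regulator beside it, except around Tbx6, where Fam57b had -0.86.

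**Figure D4:**
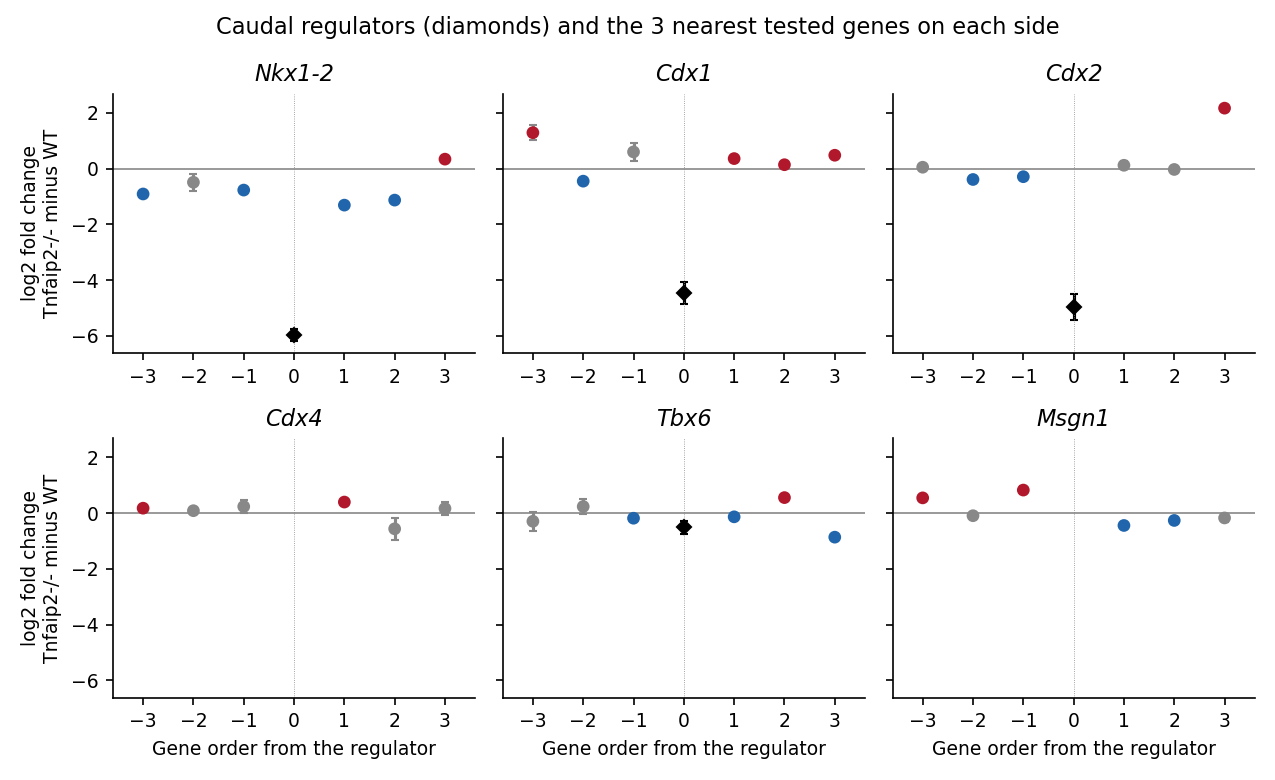
Log2 fold change (Tnfaip2-/- minus WT EBs, vertical axis) of the 3 nearest tested genes on each side of each regulator (blue lower, red higher, grey not called) in gene order (horizontal axis), with error bars of 1 standard error. Black diamonds are the tested regulators, and Cdx4 and Msgn1, which were not tested, have none. Flanking genes range from -1.31 to 2.17.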

How the data were processed

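RNA sequencing of 3 WT and 3 Tnfaip2-/- EB samples was used. After trimming and filtering, the authors aligned reads to GRCm38 with TopHat2 2.1.0 and assigned unique ones to genes with featureCounts 1.5.0. Raw counts per gene were deposited. Whether counting used the strand is not given in the sources used here. The analysis used edgeR 4.0.16 in R 4.3.3 (TMM, an expression filter requiring 10 counts in enough samples and 15 in total, robust quasi-likelihood fit, Benjamini-Hochberg adjustment, threshold 0.05), which kept 17849 of 52636 genes. Standard errors are approximate, since they were derived from the test statistic. The fit was checked on simulated counts with known changes, and the outcome of that check is not given here. Ratios of summed counts have exact conditional 95% intervals. Symbols were matched for 52403 identifiers, and GENCODE (GRCm38) gave positions and exon lengths. Alternatives used DESeq2 1.42.0, other normalizations, filters and fits, a replicate block, and each sample left out in turn.

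The regulators and lists were chosen with earlier results of these data known. Named genes were the regulators, Tnfaip2, up to 3 called genes per list with the largest change among those with groups that did not overlap, up to 2 others with the highest mean CPM, the flanking genes, and the 3 genes of most similar profile per tested regulator. The defining markers at or under the floor were named as such. A gene that this rule names is not reported here. The length of printed promoter was chosen after the values were seen.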

Additional observations from a re-analysis of the deposited data

How the results depend on the processing

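Of 364 alternative counts of called genes, taken in each direction for the lists, 342 stayed within 1.5 times the count reported and 22 did not. Of 61 alternative log2 fold changes of the regulators, 50 moved by at most 1 SD between replicates, 11 by more, and 0 changed sign. Tested against a 1.5-fold change, 2798 genes were called in place of 12084, and the number lower was 6 for paraxial mesoderm, 2 for trophoblast, 1 for gut endoderm and 5 for pluripotency genes, with 7 flanking genes called, since smaller changes no longer count. For the homeobox and bHLH relatives the number lower was 3 without the filter and 0 with a minimum count of 30, where none of these genes was tested (with DESeq2 and the usual filter it was 1). For extraembryonic mesoderm it was 2 with a minimum count of 30, which tests fewer genes. Numbers higher also dropped, to 2 for trophoblast and 2 for extraembryonic mesoderm with a minimum count of 30, and to 4 for pluripotency genes, 2 for extraembryonic mesoderm and 1 for neuromesodermal co-markers against a 1.5-fold change. Against that change edgeR called 0 higher for Wnt effectors, neural fate and T-box genes (1, 0 and 1 at an unadjusted p, and 6, 4 and 1 with DESeq2 for any change). For T-box genes the number higher was 5 without the filter, 1 with DESeq2, 1 to 4 with 1 sample left out, and 0 with a minimum count of 30 in edgeR (0 at an unadjusted p, 4 genes tested). With a prior count of 2, the log2 fold changes were -5.32 for Nkx1-2, -3.51 for Cdx1 and -3.63 for Cdx2. Leaving out 1 sample gave -6.22 to -5.77 for Nkx1-2, -5.16 to -3.91 for Cdx1, -5.82 to -4.44 for Cdx2, and -3.08 to -2.10 for Msgn1 against the floor (-2.70 with all samples), weakest without any 1 of the Tnfaip2-/- samples. With the replicate block, 11841 genes were called, 5904 lower. Same-numbered samples had correlations of -0.0783 to -0.0662, below those of other pairs (0.0157 to 0.0588), so the numbers were not taken to pair the samples. Filter, prior count and block cannot alter the value of Msgn1, and Cdx4 has no fold change to vary. With 0 to 3 counts per Tnfaip2-/- sample, depth limits how large the fold changes of Cdx1, Cdx2 and Msgn1 can be said to be.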

Other observations

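The genes whose profile over the 6 samples was most like that of each tested regulator were found by the root mean square difference of centred log2 CPM. For Nkx1-2 these were Wnt8a (0.233), Fgf8 (0.426) and the zinc finger gene Zic1 (0.429). Zic1 was at 4.55 CPM in WT EBs and 0.0593 CPM in Tnfaip2-/- EBs. For Cdx1 they were Six2 (0.234), Nsg2 (0.277) and Evx1os (0.291), and for Cdx2 Lhx1 (0.297), Dgkb (0.297) and Fam196b (0.317). Of these, Nsg2 was the most abundant in WT EBs, with 17.1 CPM against 1.26 CPM in Tnfaip2-/- EBs. Tbx6 was closest to Snord55 (0.0752), Cyp2j9 (0.0829) and Cbfa2t2-ps1 (0.0905), all of them near 1 CPM. With 6 samples in 2 groups, the size of the difference between genotypes sets most of this likeness.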
